A study of Mus musculus with 6 samples.

Results

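The genes described here are 6 mouse POU-domain genes whose proteins are known as octamer factors: Pou5f1, Pou2f1, Pou2f2, Pou2f3, Pou3f1 and Pou6f1. They were chosen by symbol, and a probe belongs to a gene where the RefSeq transcript named for it on the array carries that symbol. Of the 55681 non-control probes on the array, which name 20972 gene symbols, 7 matched, for 5 of the 6 genes. No probe was named Pou6f1 here, and that gene was not analysed. Of the 7 probes, 6 entered the test and 4 were well above background on every array.

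The samples were 6 stable lines of ZHBTc4, a mouse embryonic stem cell line known for having both of its own Pou5f1 alleles inactivated and for living on an Oct4 transgene that tetracycline switches off. In all 6 lines the cells had been electroporated with a plasmid for a POUV protein, kept in serum and LIF with tetracycline at 2 µg/mL, and put under puromycin at 1 µg/mL from day 2. The rescuing protein was coelacanth POU5F1 in the LcPOU5F1 clones 4 and 5, coelacanth POU5F3 in the LcPOU5F3 clones 1 and 2, and mouse OCT4 in the mOct4 clones 1 and 2. Each line grew from a colony picked at day 9, so a line is 1 clone, and each was measured on 1 array of 1 colour. The question is whether the POU genes resident in these cells change when the OCT4 protein is replaced.

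POU proteins bind DNA through a POU-specific domain and a POU homeodomain joined by a linker, and the octamer factors among them are named for binding the octamer motif. OCT4, the product of Pou5f1, keeps embryonic stem cells pluripotent, largely on composite sites shared with SOX2. OCT1, from Pou2f1, reads many of the same octamers in nearly every cell type, while the other members are known mostly from particular lineages.

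Values are log2 processed signals with the 75th percentile of the same array set to 0, so a value of 1 is a signal of 2 times that percentile. They compare 1 probe between samples and say nothing of one gene against another. The share of probes well above background ran from 43.5% to 57.8% over the 6 arrays, with the mOct4 arrays highest, and no spot was saturated. The lowest signal well above background lay between -3.91 and -2.37, so a dim probe could be read further down on LcPOU5F3 clone 2 and both mOct4 arrays than on the other 3. The clones of 1 group were apart by more than 1 in 18.4% of tested probes for LcPOU5F3, in 4.76% for LcPOU5F1 and in 1.26% for mOct4. All 10 embryonic stem cell markers were well above background on every array, with a summed linear level of 773 to 794 times the percentile in LcPOU5F1, 294 to 426 in LcPOU5F3 and 767 to 849 in mOct4. Dppa5a, at 8.17 and 7.80 in LcPOU5F3 and 8.47 and 8.73 in mOct4, made up most of the LcPOU5F3 sum. The sum thus says little of the dimmer markers.

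Pou5f1 was read by the probe A_51_P202340. It gave -4.77 and -4.04 in LcPOU5F1 clones 4 and 5, -3.19 and -5.93 in LcPOU5F3 clones 1 and 2, and -1.75 and -1.47 in mOct4 clones 1 and 2. No coelacanth-rescued array of the 4 had it well above background while both mOct4 arrays did, and both mOct4 clones were above all 4 others. That pattern of detection was shared by 5.2% of the 30939 tested probes, and 12.7% had both mOct4 clones above all 4 others. The probe passed the filter on dim signals only through the mOct4 clones, so its presence among the tested probes already favours a difference in this direction.

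The probe averaged -4.40 ± 0.51 in LcPOU5F1, -4.56 ± 1.94 in LcPOU5F3 and -1.61 ± 0.20 in mOct4 (SD, n = 2 each). Since the signals of the coelacanth-rescued clones are only bounds, LcPOU5F1 was at least 1.90-fold and LcPOU5F3 at least 2.89-fold lower than mOct4, with each array's lowest readable signal as the floor. These bounds move with the floor: 1 common floor for all arrays gave a log2 difference of -0.76 from mOct4 for both, and normexp background correction gave -0.70 for LcPOU5F1 and -0.94 for LcPOU5F3. The LcPOU5F3 bound rests mostly on clone 2, whose array could be read down to -3.91, against -2.37 for clone 1. Neither difference passed limma's test with Benjamini-Hochberg adjustment, with adjusted p = 0.338 for LcPOU5F1 and adjusted p = 0.0906 for LcPOU5F3. The sources used here do not say which part of the transcript the probe reads, so the mouse Oct4 plasmid, the older transgene and the inactivated alleles cannot be told apart. The related sequence Pou5f1-rs4, named here after its values were seen, gave -4.91 and -4.57 in LcPOU5F1, -4.62 and -6.13 in LcPOU5F3, and -3.44 and -3.58 in mOct4. It was well above background only on the array of mOct4 clone 1 and was not tested.

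The DNA just before the Pou5f1 gene is shown because several nuclear receptors described further on are known to act on it, although these arrays do not measure that DNA. In RefSeq's GRCm38.p6 the window chr17:35505782-35506081, plus strand, runs from 250 bases before to 50 bases after the start of the gene. The capitals mark a GC box (GGGCGG), the site of Sp1-type factors, with its first base at -45, and a nuclear receptor half-site (AGGTCA) with its first base at -33, which do not overlap.
Pou5f1: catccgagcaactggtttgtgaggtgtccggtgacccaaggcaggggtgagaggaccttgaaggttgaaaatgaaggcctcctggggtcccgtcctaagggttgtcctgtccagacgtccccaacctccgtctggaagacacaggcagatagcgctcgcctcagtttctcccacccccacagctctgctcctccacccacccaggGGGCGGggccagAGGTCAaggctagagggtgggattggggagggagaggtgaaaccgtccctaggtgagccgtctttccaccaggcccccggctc

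RefSeq's table held 7 promoter windows for 4 of the 6 genes, Pou5f1, Pou2f1, Pou2f2 and Pou6f1. Searched on both strands, the GC box was in 4 of the 7 windows, 1 for each of these genes, against 35.7% of all 32851 windows. The half-site AGGTCA was in the Pou5f1 window alone, against 16.3% of all windows. The octamer ATGCAAAT was in 0 of the 7 windows, against 1.74% of all, so these letters are not in the stretch searched.

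Pou2f1 encodes OCT1, the broadly expressed octamer factor that can occupy sites also used by OCT4. Its probe A_51_P361492 gave 2.62 and 2.65 in the LcPOU5F1 clones, 1.95 and 2.32 in the LcPOU5F3 clones, and 2.63 and 2.82 in the mOct4 clones. Both LcPOU5F3 clones were below all 4 others, and the LcPOU5F1 and mOct4 clones overlapped. LcPOU5F3 was below mOct4 by a log2 difference of -0.59 ± 0.20 (SE, 95% interval -1.09 to -0.08), which did not pass (adjusted p = 0.114). Of all tested probes, 39.2% had LcPOU5F3 below mOct4 without overlap and 44.2% had LcPOU5F1 above LcPOU5F3 without overlap.

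LcPOU5F1 differed from mOct4 at this probe by -0.09 ± 0.20 (95% interval -0.60 to 0.42, adjusted p = 0.855). An increase or a decrease within that interval cannot be told from no change with 2 clones a group. The second Pou2f1 probe, A_55_P2209912, which names another transcript of the gene, gave -0.16 and -0.27 in LcPOU5F1, -0.50 and -0.56 in LcPOU5F3, and -0.31 and -0.29 in mOct4. The 3 groups did not overlap at this second probe, and the share of all probes with this order was not counted. Taken in pairs, such separation was common. Of all tested probes, 39.9% had LcPOU5F1 above mOct4 without overlap, 39.2% had LcPOU5F3 below mOct4 and 44.2% had LcPOU5F1 above LcPOU5F3. LcPOU5F3 was lowest, with a difference of -0.23 ± 0.16 from mOct4 (adjusted p = 0.369), beside a median of -0.16 for all tested probes. LcPOU5F1 minus LcPOU5F3 was 0.50 ± 0.20 at the first probe (adjusted p = 0.157) and 0.32 ± 0.16 at the second (adjusted p = 0.224). The median of all tested probes in that comparison was 0.33, close to the value of the second Pou2f1 probe.

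**Figure D1:**
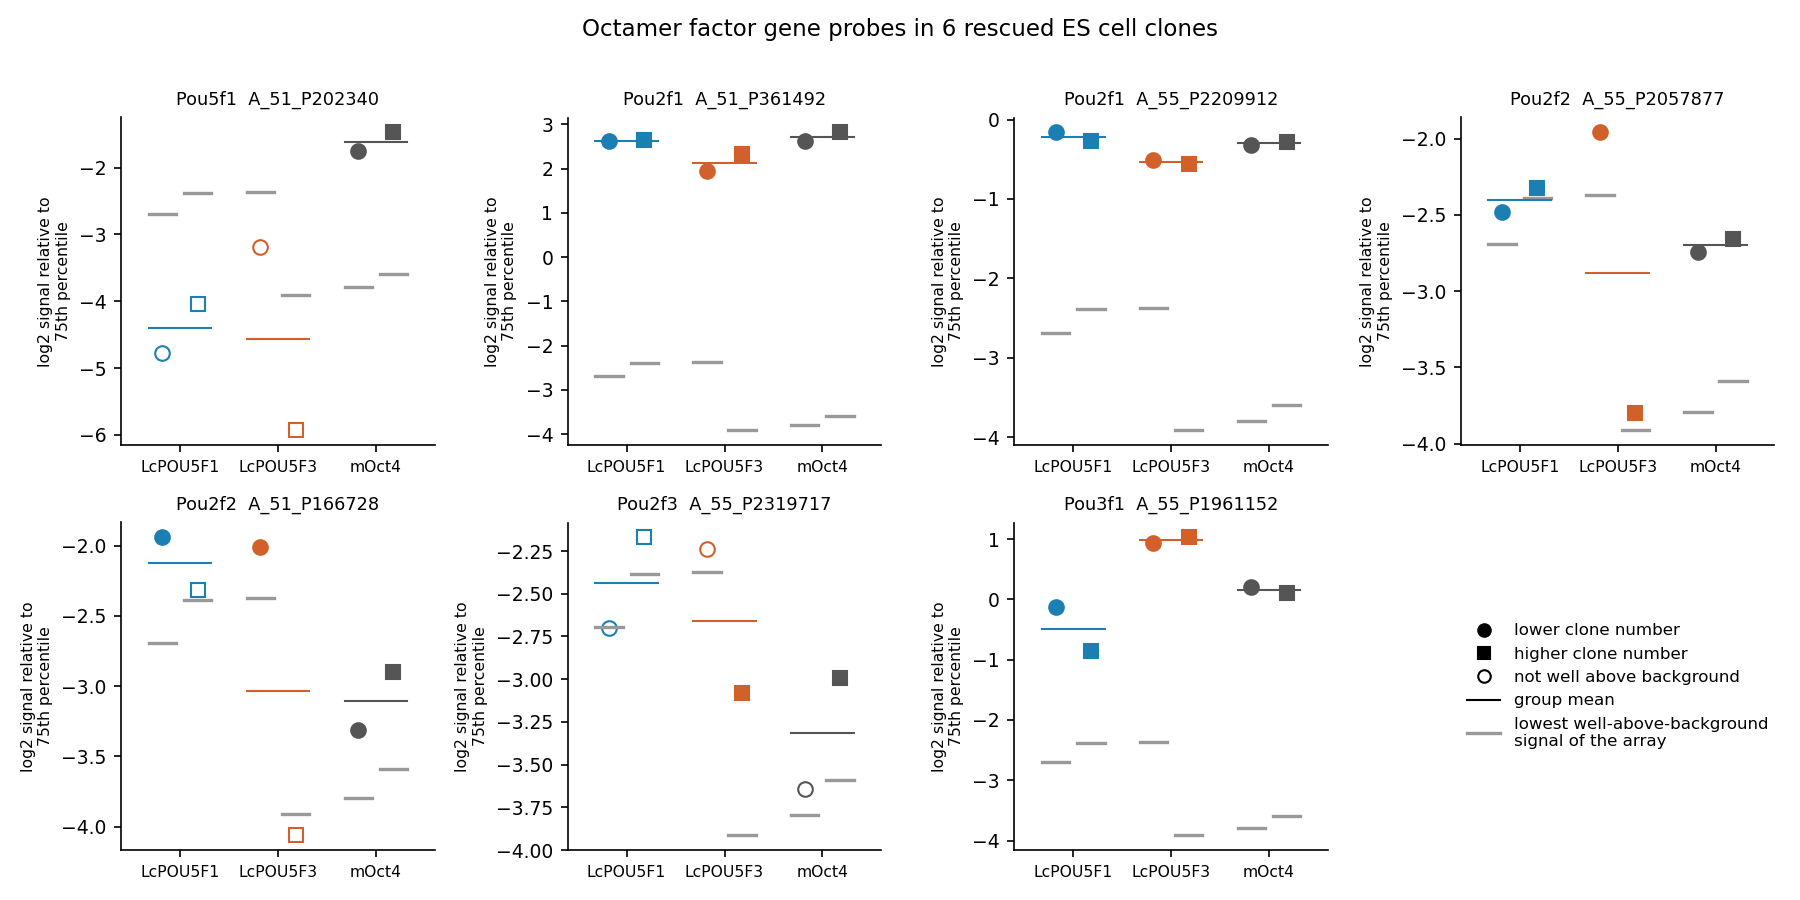
Each panel plots 1 probe of Pou5f1, Pou2f1, Pou2f2, Pou2f3 or Pou3f1, with the log2 signal relative to the array's 75th percentile on the vertical axis and the LcPOU5F1, LcPOU5F3 and mOct4 clones side by side (circles for the lower clone number, squares for the higher, open symbols where the signal was not well above background). Coloured lines are group means of 2 clones and grey ticks the lowest signal well above background on each array; the Pou5f1 symbols are filled only for mOct4, and the Pou3f1 symbols stand at 3 separate heights.

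Pou2f2 encodes OCT2, known from B lymphocytes and neurons. The probe A_55_P2057877 gave -2.48 and -2.32 in the LcPOU5F1 clones, -1.96 and -3.80 in the LcPOU5F3 clones, and -2.74 and -2.66 in the mOct4 clones. All 6 signals were well above background, and the LcPOU5F3 clones were 1.84 apart, 1 above and 1 below the other 4. The second probe, A_51_P166728, gave -1.94 and -2.31 in LcPOU5F1, -2.01 and -4.06 in LcPOU5F3, and -3.31 and -2.90 in mOct4. The arrays of LcPOU5F1 clone 4, LcPOU5F3 clone 1 and both mOct4 clones had it well above background. Here the LcPOU5F3 clones were 2.05 apart, with clone 2 the lowest of the 6 signals.

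At the first Pou2f2 probe both LcPOU5F1 clones were above both mOct4 clones, by 0.30 ± 0.59 (95% interval -1.19 to 1.79, adjusted p = 0.834), and by 0.024 with 1 common floor for all arrays. At the second, LcPOU5F1 clone 5 was not well above background and both mOct4 signals lay below the lowest that the LcPOU5F1 arrays could read. The fitted difference there was 0.98 (adjusted p = 0.553), and 0.24 with the common floor, so no order of these groups can be read from it. LcPOU5F3 differed from mOct4 by -0.18 and 0.07, with adjusted p = 0.875 and 0.961. The lowest signal well above background was -2.37 on the array of LcPOU5F3 clone 1 and -3.91 on that of clone 2, and its part in the distance between these clones was not tested. Of 6 B cell markers, 2 were well above background on both arrays in LcPOU5F1, 2 in LcPOU5F3 and 4 in mOct4, and their summed linear levels were 1.31 to 1.36, 0.310 to 0.826 and 1.04 to 1.11 times the percentile in that order. Ms4a1, which encodes CD20, and Pou2af1, the B cell coactivator of OCT1 and OCT2, were well above background on none of the 6 arrays.

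Pou2f3 encodes the octamer factor of tuft cells and of differentiating keratinocytes. Its probe A_55_P2319717 gave -2.70 and -2.17 in the LcPOU5F1 clones, -2.24 and -3.08 in the LcPOU5F3 clones, and -3.64 and -2.99 in the mOct4 clones. Only LcPOU5F3 clone 2 and mOct4 clone 2 were well above background, so no group had both arrays and the probe was not tested. Of 6 tuft cell markers, 2 were well above background on both arrays in LcPOU5F1, 2 in LcPOU5F3 and 3 in mOct4, with summed linear levels of 1.26 to 1.74, 1.29 to 1.62 and 1.67 to 2.27. Avil and Il25 were well above background on no array.

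Pou3f1 encodes OCT6, also called SCIP, a factor of myelinating Schwann cells and keratinocytes that embryonic stem cells and the epiblast also express. Its only probe, A_55_P1961152, gave -0.13 and -0.86 in LcPOU5F1 clones 4 and 5, 0.93 and 1.03 in LcPOU5F3 clones 1 and 2, and 0.21 and 0.11 in mOct4 clones 1 and 2. All 6 signals were well above background. Both LcPOU5F3 clones were highest, both mOct4 clones came next and both LcPOU5F1 clones were lowest, with no overlap between any groups. This order without overlap was met by 3.08% of tested probes.

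Pou3f1 averaged -0.50 ± 0.52 in LcPOU5F1, 0.98 ± 0.07 in LcPOU5F3 and 0.16 ± 0.07 in mOct4 (SD, n = 2 each). LcPOU5F1 was 2.78-fold lower than LcPOU5F3 (log2 difference -1.47 ± 0.28 SE, 95% interval -2.17 to -0.78), and this passed limma's test with Benjamini-Hochberg adjustment (adjusted p = 0.0367). Neighbours in the order did not differ beyond the test's threshold. LcPOU5F3 was 1.76-fold above mOct4 (0.82 ± 0.28, 95% interval 0.12 to 1.52, adjusted p = 0.112). LcPOU5F1 was 1.58-fold below mOct4 (-0.66 ± 0.28, 95% interval -1.35 to 0.04, adjusted p = 0.410).

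The direction between the paralogs held in all 17 alternatives, with log2 differences from -1.88 to -1.11, and 8 of the 17 called it. Many of these alternatives could not turn the direction. The filters, 1 probe per gene, the intensity trend and the common floor left the signals of these 4 arrays, and so the difference of -1.47, unchanged. The slide block, the 4 arrays alone and leaving out an mOct4 clone did so too. All 4 arrays of that comparison were on 1 slide. With the slide as a block, or without either mOct4 clone, only those 4 arrays set the spread, as a lone mOct4 array adds nothing to it. These settings are therefore the same fit as only the 4 arrays compared, not separate checks. In that fit the call was lost (-1.47, limma adjusted p = 0.115). It was also lost without LcPOU5F1 clone 4 (-1.84, adjusted p = 0.0644), LcPOU5F1 clone 5 (-1.11, adjusted p = 0.125) or LcPOU5F3 clone 2 (-1.42, adjusted p = 0.0762).

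**Figure D2:**
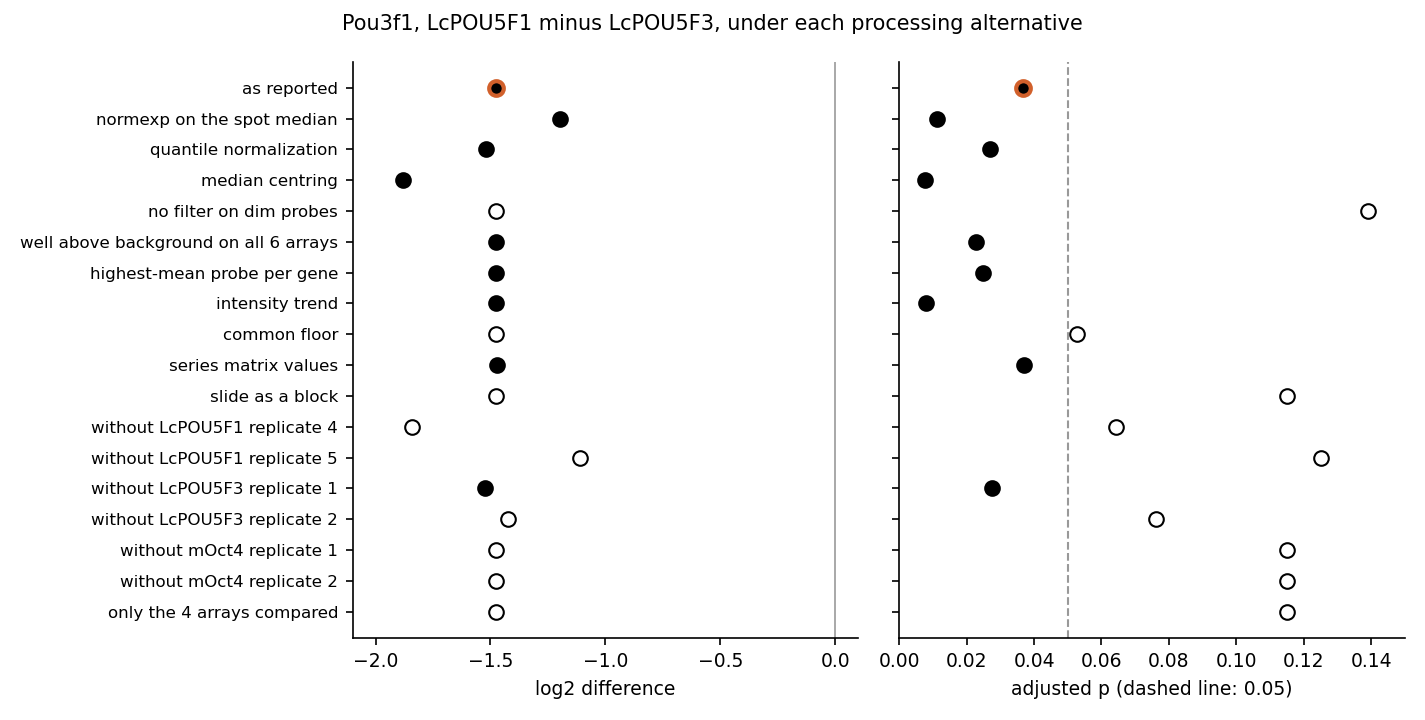
The log2 difference of Pou3f1 between LcPOU5F1 and LcPOU5F3 (left, horizontal axis) and its adjusted p (right, horizontal axis, dashed line at 0.05) are plotted for the values as reported and for 17 alternatives, with filled symbols where the adjusted p was under 0.05. Every difference lies between -1.88 and -1.11, while the adjusted p runs from 0.0076 to 0.139.

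Summed markers of other cell types also differed between groups, but not all in the order seen for Pou3f1. Of 10 trophectoderm markers, 6 were well above background on both arrays in LcPOU5F1, 9 in LcPOU5F3 and 8 in mOct4. Their summed linear level was 23.6 to 32.5 in LcPOU5F1, 524 to 549 in LcPOU5F3 and 35.4 to 36.1 in mOct4. The keratin genes Krt18, at 8.56 and 8.60 on the log2 scale, and Krt8, at 6.42 and 6.71, made up most of the LcPOU5F3 sum. Cdx2 lay above mOct4 in LcPOU5F3 (3.09 and 3.40 in LcPOU5F3, against -0.55 and -0.61 in mOct4). Gata3 did too (2.68 and 3.35, against -0.89 and -1.01), as did Krt7 and Krt19. Eomes lay below mOct4 in LcPOU5F3 (0.28 and -0.73 in LcPOU5F3, against 1.57 and 2.02 in mOct4), and Hand1 and Tfap2c overlapped between those groups. The 6 markers of the formative or primed epiblast summed to 39.0 to 48.9 in LcPOU5F1, 64.9 to 78.1 in LcPOU5F3 and 70.0 to 88.2 in mOct4, with 2, 3 and 5 of them well above background on both arrays. Dnmt3b made up most of each of these sums. The 6 neural progenitor markers summed to 8.44 to 10.3 in LcPOU5F1, 3.10 to 3.26 in LcPOU5F3 and 6.98 to 7.18 in mOct4. Tubb3 made up most of the mOct4 sum, at 2.24 and 2.38 on the log2 scale, against -0.18 and -2.28 in LcPOU5F3. Pax6 was also lower in LcPOU5F3 than in mOct4. Nes was higher (0.33 and 0.97, against -0.09 and -0.25), and the rest overlapped between those groups. Among the neural markers Sox1 was well above background on all 6 arrays, and among the trophectoderm markers Elf5 on none. The 6 fibroblast markers summed to 1.09 to 1.101 in LcPOU5F1, 4.34 to 5.11 in LcPOU5F3 and 1.81 to 2.13 in mOct4. Thy1 and Dcn made up most of that LcPOU5F3 sum, while Col1a1 and Pdgfra were well above background on neither LcPOU5F3 array. The part of such cells in the Pou3f1 values was not tested, and a change in the share of cells of a type and a change in RNA per cell cannot be told apart in these bulk samples.

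Over the 6 tested probes of the octamer factor genes, LcPOU5F1 against mOct4 had 0 calls where 0% of all tested probes were called. At an unadjusted p under 0.05 it had 1 of the 6, against 12.6% of all tested probes. LcPOU5F3 against mOct4 had 0 calls against 12.6% of all tested probes, and 3 of the 6 at an unadjusted p under 0.05 against 32.8%. LcPOU5F1 against LcPOU5F3 had 1 call, Pou3f1, against 10.7% of all tested probes, and the same 1 of 6 at an unadjusted p under 0.05 against 32.6%.

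The members' median log2 difference was -0.0027 for LcPOU5F1 against mOct4, -0.21 for LcPOU5F3 against mOct4 and 0.40 for LcPOU5F1 against LcPOU5F3. The same medians over all tested probes were 0.12, -0.16 and 0.33. In LcPOU5F1 against mOct4 the groups did not overlap at 5 of the 6 probes, 3 higher and 2 lower, against 59.2% of all tested probes, 39.9% higher and 19.3% lower. In LcPOU5F3 against mOct4 they did not overlap at 4 of the 6, 1 higher and 3 lower, against 60.8%, 21.6% higher and 39.2% lower. In LcPOU5F1 against LcPOU5F3 they did not overlap at 3 of the 6, 2 higher and 1 lower, against 61.2%, 44.2% higher and 17% lower. The comparisons share their arrays, so these counts are not independent of each other. The counts also include signals not well above background. The second Pou2f2 probe counts as higher in LcPOU5F1 against mOct4, although no order could be read there. Pou5f1, which passed the filter only through the mOct4 clones, counts as lower in both comparisons with mOct4.

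**Figure D3:**
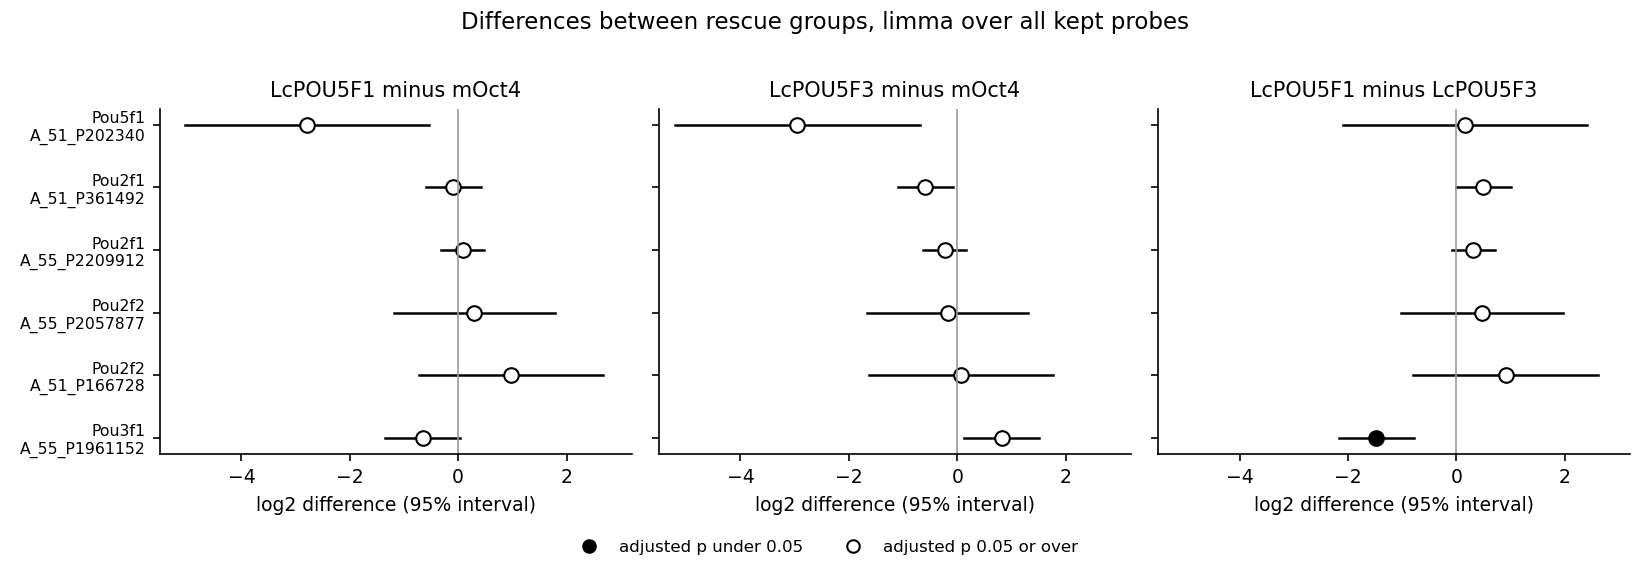
The horizontal axis gives the log2 difference for the 6 tested probes (rows) in 3 panels, LcPOU5F1 minus mOct4, LcPOU5F3 minus mOct4 and LcPOU5F1 minus LcPOU5F3, with bars for limma's 95% interval. The only filled symbol, for an adjusted p under 0.05, is Pou3f1 between the coelacanth paralogs at -1.47, and the longest bars belong to Pou5f1 and Pou2f2.

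Of 9 other POU genes, 4 had a tested probe, and Pou4f1, Pou4f2 and Pou5f2 are described here. Pou4f1, which encodes the sensory neuron factor BRN3A, gave 0.93 and 0.89 in the LcPOU5F1 clones, -0.15 and -0.27 in the LcPOU5F3 clones, and 0.60 and 0.28 in the mOct4 clones. LcPOU5F1 was 2.17-fold above LcPOU5F3 (log2 difference 1.12 ± 0.19, adjusted p = 0.0294), the reverse of the Pou3f1 order. Against mOct4 the difference was 0.47 ± 0.19 for LcPOU5F1 (adjusted p = 0.394) and -0.65 ± 0.19 for LcPOU5F3 (adjusted p = 0.0813). The Pou4f1 call between the paralogs was lost under median centring (0.71, adjusted p = 0.391), with no filter on dim probes (adjusted p = 0.141), and with the slide as a block or only the 4 arrays compared (adjusted p = 0.0935). It was also lost without either LcPOU5F1 clone, LcPOU5F3 clone 2 or either mOct4 clone. The slide block and leaving out an mOct4 clone are again the same fit as only the 4 arrays compared.

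Pou4f2, the retinal ganglion cell factor BRN3B, gave 0.17 and -0.19 in LcPOU5F1, -3.46 and 0.35 in LcPOU5F3, and -0.23 and -1.40 in mOct4. Its LcPOU5F3 clones were 3.81 apart, the lower one not well above background, and it was called in no comparison. Pou5f2, a relative of Pou5f1 known from the testis, gave -2.36 and -1.92 in LcPOU5F1, -3.01 and -1.99 in LcPOU5F3, and -2.48 and -2.54 in mOct4, and was called in none. The Pou1f1, Pou3f3 and Pou3f4 probes and the 3 probes of Pou3f2 were well above background on no array, and Pou4f3 on 2.

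**Figure D4:**
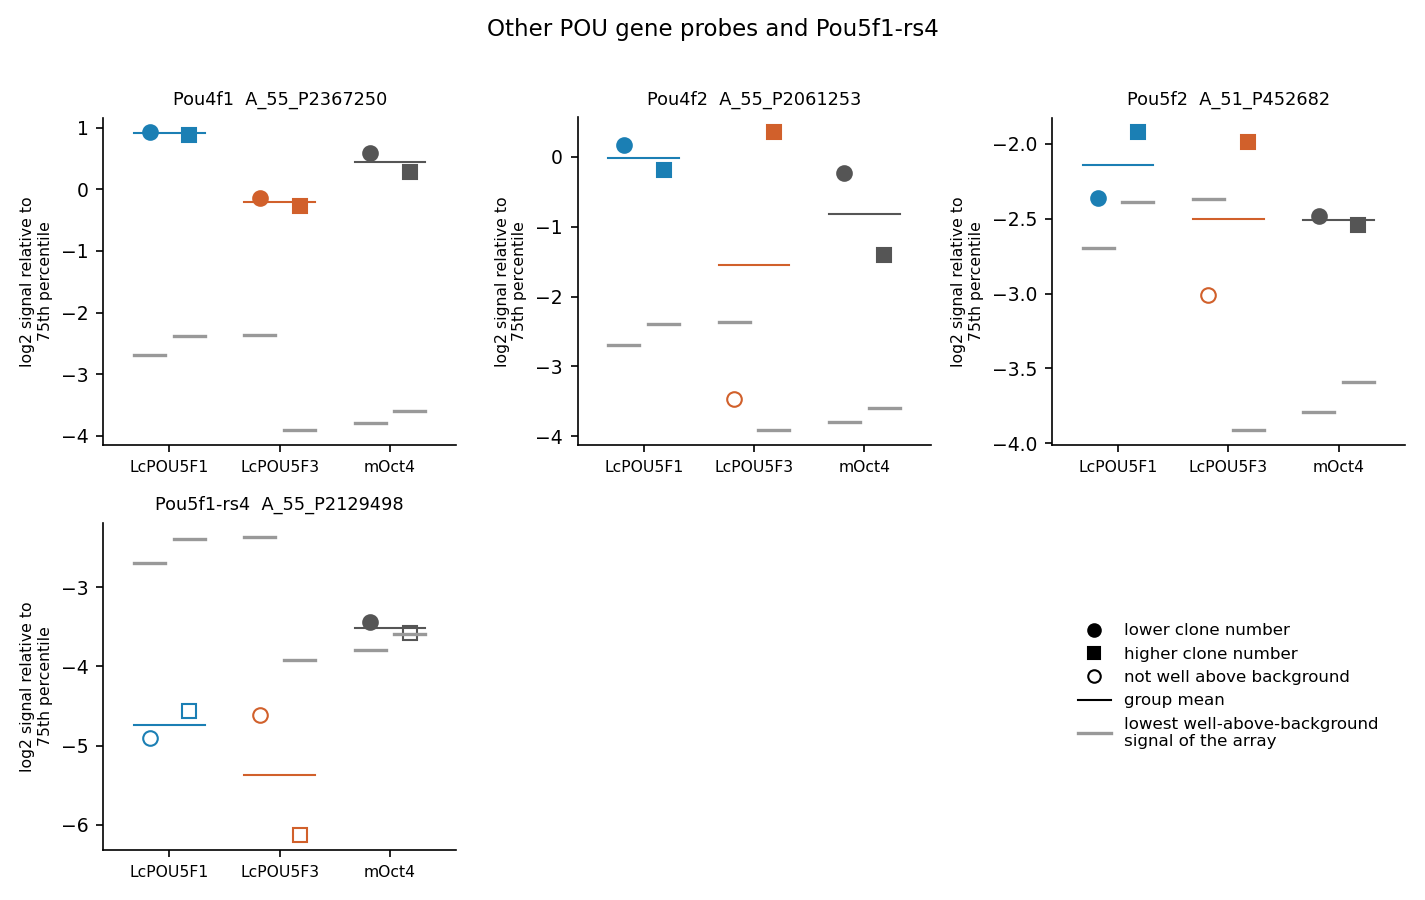
Panels plot the probes of Pou4f1, Pou4f2, Pou5f2 and the related sequence Pou5f1-rs4, with the log2 signal relative to the array's 75th percentile on the vertical axis and the LcPOU5F1, LcPOU5F3 and mOct4 clones side by side, in the same symbols as the plot of the octamer factor genes. The Pou4f1 clones lie at 0.93 and 0.89, -0.15 and -0.27, and 0.60 and 0.28 in that order of groups, while the Pou4f2 values in LcPOU5F3 are 3.81 apart.

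Genes whose profile over the 6 arrays was most like that of a member were sought among 14770 named probes well above background on every array, by the root mean square difference after each profile's mean was subtracted. Nearest to Pou3f1 were Ica1l at 0.086, Ikzf4, a zinc finger gene of the Ikaros family, at 0.111 and Ehd1, a gene of endocytic recycling, at 0.130. Ica1l gave -0.73 and -1.27 in LcPOU5F1, 0.33 and 0.56 in LcPOU5F3, and -0.46 and -0.46 in mOct4. Its order of groups and of the LcPOU5F1 clones was that of Pou3f1, which follows from choosing the nearest profile and is not a separate result. Nearest to the Pou2f2 probe A_55_P2057877 were E230025N22Rik at 0.079, Rsph6a at 0.084 and Ncan at 0.120. All 3 had LcPOU5F3 clones 1.59 to 1.74 apart and signals near the lowest that could be read.

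**Figure D5:**
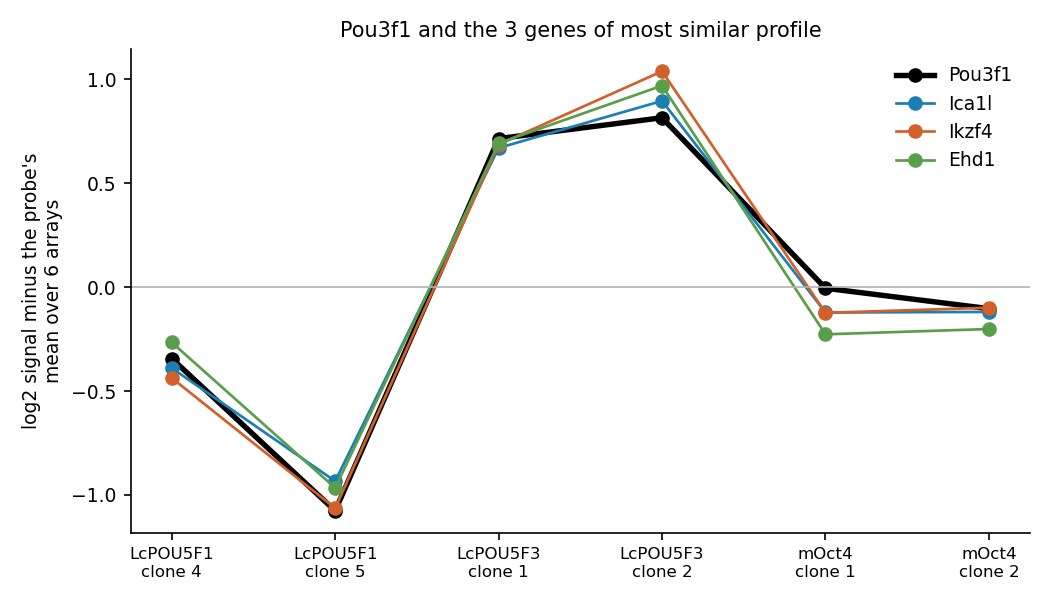
The vertical axis gives the log2 signal of Pou3f1, Ica1l, Ikzf4 and Ehd1 minus each probe's own mean over the 6 arrays, and the horizontal axis the 6 clones by group. The 4 lines run close together because the other genes were chosen for likeness to Pou3f1. They are lowest in LcPOU5F1 clone 5 and highest in LcPOU5F3 clone 2, and only join the points of a gene.

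Of 17 partners and cofactors of octamer factors, 14 had a tested probe. In LcPOU5F3 against mOct4, 6 of the 14 were lower and none higher, beside 6.83% and 5.73% of all tested probes, with a median of -1.41 beside -0.16 for all. Parp1, a chromatin and DNA repair enzyme that modifies proteins with ADP-ribose, was lower by -1.83 ± 0.22 (adjusted p = 0.0151). Sox2, the main DNA-binding partner of OCT4, gave 4.08 and 4.32 in LcPOU5F1, 2.46 and 2.03 in LcPOU5F3, and 4.02 and 3.83 in mOct4, and was lower in LcPOU5F3 by -1.68 ± 0.22 (adjusted p = 0.0180). Otx2, a partner of OCT4 in the formative state, gave 3.44 and 3.34 in LcPOU5F1, 3.34 and 2.95 in LcPOU5F3, and 4.33 and 4.64 in mOct4. Its difference from mOct4 passed for LcPOU5F3 (-1.35 ± 0.22, adjusted p = 0.0253) and not for LcPOU5F1 (2.14-fold lower, adjusted p = 0.225), while LcPOU5F1 minus LcPOU5F3 was 0.25 ± 0.22 (adjusted p = 0.451). Between LcPOU5F1 and LcPOU5F3, 4 of the 14 were higher and none lower (5.8% and 4.95% of all tested probes), with a median of 0.73 beside 0.33. Of all probes called in that comparison 54.0% were higher, against 43.4% after quantile normalization and 28.2% after centring on the median. In LcPOU5F1 against mOct4, 0 of the 14 were called.

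Of 24 genes at which OCT4 binding has been described in embryonic stem cells, all had a tested probe. In LcPOU5F3 against mOct4, 15 were lower and none higher, beside 6.83% and 5.73% of all tested probes, with a median of -1.50 beside -0.16 for all. The same LcPOU5F3 clones had the trophectoderm sums of 524 to 549, against 35.4 to 36.1 in mOct4, and the lower stem cell marker sums given at the start, and the part of such cells in these counts was not tested. Upp1, which encodes uridine phosphorylase, had a log2 difference of -3.39 ± 0.28 (adjusted p = 0.00981), and Fbxo15, a classic OCT4 and SOX2 target, one of -2.93 ± 0.34 (adjusted p = 0.0145). Against LcPOU5F3, LcPOU5F1 was higher at 15 and lower at none, beside 5.8% and 4.95% of all tested probes, with a median of 1.65 beside 0.33. In that comparison Sox2 differed by 1.95 ± 0.22, Etv5, an ETS factor, by 1.63 ± 0.19 and Spp1, which encodes osteopontin, by 1.51 ± 0.19. In LcPOU5F1 against mOct4 none of the 24 passed, with Upp1 at -1.21 ± 0.28 (adjusted p = 0.263) and Mycn at 0.93 ± 0.25 (adjusted p = 0.295). Sox2, Nanog and Esrrb are also among the partners and cofactors above, so their calls count in both lists.

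Of 12 known regulators of the Pou5f1 gene, 11 had a tested probe. Nr2f2 encodes COUP-TFII, a repressor of Pou5f1. It gave -2.85 and -3.09 in LcPOU5F1, where neither array was well above background, 0.71 and 0.10 in LcPOU5F3, and -2.24 and -2.52 in mOct4. It was 6.90-fold higher in LcPOU5F3 than in mOct4 (2.79 ± 0.27, adjusted p = 0.0115) and at least 7.70-fold lower in LcPOU5F1 than in LcPOU5F3 (adjusted p = 0.00849).

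Nr5a2 encodes LRH-1, an activator of Pou5f1 in the epiblast. It gave 3.75 and 4.28 in LcPOU5F1, 1.91 and 1.37 in LcPOU5F3, and 3.53 and 3.52 in mOct4, and was lower in LcPOU5F3 than in mOct4 by -1.88 ± 0.28 (adjusted p = 0.0214). Nr6a1, which encodes the repressor GCNF, gave -1.69 and -2.03 in LcPOU5F1, -1.81 and -2.11 in LcPOU5F3, and -0.78 and -0.76 in mOct4. Its difference from mOct4 was -1.09 ± 0.21 for LcPOU5F1, which did not pass (adjusted p = 0.214), and -1.20 ± 0.21 for LcPOU5F3, which did (adjusted p = 0.0285). In all, 1 regulator was higher and 3 were lower in LcPOU5F3 than in mOct4, beside 5.73% and 6.83% of all tested probes (median -0.59 beside -0.16). In LcPOU5F1 against LcPOU5F3, 4 were higher and 1 lower, beside 5.8% and 4.95% (median 0.58 beside 0.33), and in LcPOU5F1 against mOct4 none was called. Esrrb is in this list and in both lists before it, and its calls count in each.

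The calls in these 3 lists depended on which arrays set the spread. With only the 4 arrays compared, LcPOU5F3 against mOct4 kept Parp1 (limma adjusted p = 0.0435) and Sox2 (0.0491) but lost Otx2 (0.065). Between the paralogs the same setting lost Parp1 (0.0754) and Sox2 (0.0764). Without mOct4 clone 1, or without mOct4 clone 2, neither these lists nor the other POU genes had a called member in any comparison, and between the paralogs the same held without LcPOU5F1 clone 4 or clone 5. The 18 called differences among the 3 smallest p of each list kept their direction in all 322 refits and were called in 201 of them. Refits that change only the filter or the spread leave a difference as it is, so the direction could not turn in those.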

How the data were processed

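Total RNA (RNA integrity number 10, per the labels) of the 6 lines was hybridised to 1-colour Agilent arrays. Per the file headers, the authors extracted spot intensity with Agilent Feature Extraction 11.0.1.1 under the protocol GE1_1100_Jul11, and the deposited processed intensity is linear and background-subtracted, with no scaling between arrays. In the deposited series matrix the intensity is the same after rounding (largest relative difference 0.498%). The array design names the build mm9. Detection, saturation and outlier flags of 0 or 1 were also deposited, set by the scanner software, per the file headers.

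Processed signals were taken to log2 and centred on each array's 75th percentile, a log2 scale made here from the deposited values. Control and outlier-flagged spots were left out. Kept probes had both arrays of some group well above background, which left 30939 of 55681 probes after 5 incomplete ones were dropped. Matching RefSeq accessions without versions to a GRCm38.p6 table named 27656 probes with 1 symbol, 0 with several and left 28025 unnamed. Limma 3.58.1 in R 4.3.3 (lmFit, eBayes, two-sided) fitted 3 group means to all 6 arrays, probe by probe, with 3 residual degrees of freedom (5.27 moderated) and Benjamini-Hochberg adjustment over all kept probes, called under 0.05. The p-values rest on the spread between clones picked apart, and having 2 of them per group limits the precision. The steps were tested on simulated data.

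All probes of a member are reported whatever their values. A list gene is read from its kept probe of the highest mean, up to 3 genes per list and comparison with the smallest p could be named, and so could the 3 genes nearest in profile to a member that was well above background on all arrays and had a range over 1. For "at least N-fold", each array of the dim group counts at the probe's signal or at that array's lowest signal well above background, whichever is higher, before the group means are compared. Some genes that this rule names are not reported here. The members and lists were chosen with earlier results of these data known. Slide 1 held 5 arrays and slide 2 mOct4 clone 2. Alternatives were normexp (offset 50, on the median spot signal, since the planned mean was not among the columns), quantile normalization, median centring, no filter, a stricter filter, 1 probe per gene, an intensity trend, a common floor on dim signals, series matrix values, slide as a block, only the 4 arrays compared, each array left out, and a replicate block. A replicate block with crossed numbers was added after seeing the data.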

Additional observations from a re-analysis of the deposited data

How the results depend on the processing

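The 6 tested probes gave 18 differences and 306 values under alternatives, of which 265 kept direction and side of the threshold, 15 became called, 9 lost a call and 17 reversed. Alternatives that change only the filter or the spread leave the difference itself as it is and cannot reverse it. Called octamer factor probes numbered 0 for LcPOU5F1 against mOct4, but 1 (Pou5f1) after median centring or with only the 4 arrays compared, and 0 to 1 with 1 array left out. For LcPOU5F3 against mOct4 the count was 0, but 1 (Pou5f1) after quantile normalization, median centring or a common floor, 2 (Pou5f1 and Pou2f1) with an intensity trend, and 0 to 2 with 1 array left out. For LcPOU5F1 against LcPOU5F3 it was 1, but 0 with no filter, the slide as a block or only the 4 arrays compared, and 0 to 4 with 1 array left out. Under a common floor the 1 call there was the second Pou2f1 probe, with Pou3f1 at adjusted p = 0.0528. The highest counts of 2 and 4 came without LcPOU5F3 clone 1. The fitted Pou5f1 difference from mOct4 shrank to -0.76 for both LcPOU5F1 and LcPOU5F3 under a common floor and to -0.70 and -0.94 after normexp.

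The 17 reversals were of differences that had not passed. For Pou5f1, LcPOU5F1 minus LcPOU5F3 turned to -0.43 (quantile), -0.25 (median centring), -0.21 without LcPOU5F1 clone 5, and with 1 array left out it ran from -1.21 (LcPOU5F3 clone 2) to 1.53 (clone 1). For Pou2f1, LcPOU5F1 minus mOct4 turned to 0.0060 with the slide as a block or without mOct4 clone 2 (probe A_51_P361492; -0.19 without mOct4 clone 1). Under median centring the probe A_55_P2209912 turned to -0.29, and to -0.088 for LcPOU5F1 minus LcPOU5F3. For the Pou2f2 probe A_55_P2057877, LcPOU5F1 minus mOct4 turned to -0.038 (quantile) and -0.071 (median centring), and LcPOU5F3 minus mOct4 to 0.21 (common floor) and 0.74 (without LcPOU5F3 clone 2). LcPOU5F1 minus LcPOU5F3 turned to -0.18 and -0.44 under these last settings. Without LcPOU5F3 clone 1 these 2 differences were -1.10 and 1.40. For the probe A_51_P166728, LcPOU5F3 minus mOct4 turned to -0.96 without LcPOU5F3 clone 1 and -0.14 without mOct4 clone 1, and LcPOU5F1 minus LcPOU5F3 to -0.12 without LcPOU5F3 clone 2. The other ends of these ranges were 1.09 without LcPOU5F3 clone 2 and 1.94 without clone 1. Median centring shifts every difference in a comparison by the same amount. It moved the median of all probes to -0.25, -0.13 and -0.08 in the 3 comparisons, from 0.12, -0.16 and 0.33, and the signs it turned follow from that shift. For the other reversals the cause was not tested.

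Over all probes the calls ranged from 0 to 777 for LcPOU5F1 against mOct4 (0 as reported), from 0 to 7798 for LcPOU5F3 against mOct4 (3886) and from 0 to 11859 between the paralogs (3325). With the clone number as a replicate block over the 4 mOct4 and LcPOU5F3 arrays, 0 octamer factor probes and 0 of all probes were called, against 1327 for those 4 arrays without it. Clones were picked separately, and the labels state no pairing by number. Same-numbered clones deviated with a correlation of -0.13, which rests on 1 difference per group and cannot decide whether the numbers pair them. The crossed pairing called 985 probes and 0 octamer factor probes. Pou5f1 and the second Pou2f2 probe gave no value under the stricter filter, nor did second probes with 1 probe per gene. Signals near background limit Pou5f1, Pou2f2 and Pou2f3, where a difference may be undetectable rather than absent.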
